A study of Homo sapiens with 6 samples.

Results

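WDR45B is 1 of the 4 human WIPI genes, which encode proteins that bind a membrane lipid during autophagy. It was examined here with 9 partner genes of the same pathway in TE1 cells, a human esophageal squamous cell carcinoma (ESCC) line. The 10 genes were taken by symbol from the 12180 genes of the deposited gene table, and their 32 transcripts from the 33090 of the transcript table. They were the WIPI family (WDR45B, WDR45, WIPI1 and WIPI2), the lipid transfer genes ATG2A and ATG2B, and ATG16L1, ULK1, BECN1 and SQSTM1. All 10 were listed and all 10 passed the filter of a mean of at least 0.5 FPKM (sequenced fragments scaled to transcript length and to the size of the library) over the 6 libraries.

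RNA of 3 control libraries (NC) was compared with RNA of 3 libraries of cells overexpressing FGL1 (FGL1-OE), a secreted fibrinogen-like protein. The labels give the control genotype as WT, while the methods of the study describe controls with a nonsense sequence. The methods describe lentiviral constructs for both kinds of line, and puromycin selection for lines with modified FGL1 without naming the controls. Were the controls untreated WT cells, virus and selection could not be told apart from FGL1. The labels name no irradiation of either group. The labels do not say whether the 3 libraries of a group came from separate cultures, and the study speaks of independent experiments only in general, without naming the sequencing. P-values therefore measure only the spread between these libraries, which may be technical.

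The comparison asks which genes differ once FGL1 is raised. Libraries are given in the order of their replicate numbers throughout. FGL1 itself was at 0.0202, 0 and 0.106 FPKM across NC and at 33.5, 39.3 and 39.9 FPKM across FGL1-OE. Its log2(FPKM + 1) was 5.21 higher in FGL1-OE (SE 0.15, limma adjusted p = 1.29e-05), which matched the labels. Of 9 squamous epithelial markers 8 were listed, all but KRT14, with a summed level of 483 to 778 FPKM across NC and 686 to 776 FPKM across FGL1-OE, and 2 of the 8 had an unadjusted limma p under 0.05 (2.01% of all genes tested). These were CDH1 (0.54, SE 0.20) and KRT6A (0.50, SE 0.18), both higher in FGL1-OE with an adjusted p of 1.00 in limma. Fibroblast markers summed to 2.29 to 8.11 and 3.24 to 8.27 FPKM, CD14 was the single leukocyte marker listed of 5 (at most 0.854 FPKM), and none of 5 endothelial markers was listed. The NC libraries were less alike than the FGL1-OE libraries, with a correlation across genes of 0.885 between NC 1 and NC 2 and of at least 0.981 between any pair of FGL1-OE libraries. The depth of the libraries is unknown, because the tables hold FPKM without counts.

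Autophagy encloses part of the cytoplasm in a double membrane, the autophagosome, and delivers it to lysosomes. The ULK1 kinase complex starts the process, and the class III PI3-kinase complex with BECN1 then makes phosphatidylinositol 3-phosphate (PI3P) on the growing membrane. WIPI proteins are seven-bladed propellers that recognise PI3P. WIPI2 recruits ATG16L1, which places the LC3 conjugation enzymes, while WDR45B and WDR45 are partners of ATG2 proteins, which carry lipid from the endoplasmic reticulum to the growing membrane. SQSTM1 (p62) links ubiquitinated cargo to LC3 and is itself degraded with it. Mutations of WDR45 and WDR45B are known from inherited disorders of the nervous system.

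The sequences below are shown because all 4 family members share the PI3P-binding motif, while the bases that encode it and those around it differ between them. Each is 60 coding bases from GENCODE v29 (GRCh38), 5′ to 3′ on the coding strand, and the capitals mark the 12 bases of the motif. Every stretch crosses an exon junction, so that its genomic span holds an intron.
WDR45B (chr17:82617397-82619101, minus strand, motif at coding bases 670 to 681 of 1032): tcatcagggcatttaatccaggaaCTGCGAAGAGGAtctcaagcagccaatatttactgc
WDR45 (chrX:49075465-49075603, minus strand, motif at coding bases 691 to 702 of 1080): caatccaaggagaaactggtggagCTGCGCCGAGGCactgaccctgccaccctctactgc
WIPI1 (chr17:68433560-68434599, minus strand, motif at coding bases 673 to 684 of 1338): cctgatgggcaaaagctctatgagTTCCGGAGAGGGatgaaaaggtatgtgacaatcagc
WIPI2 (chr7:5222629-5225838, plus strand, motif at coding bases 667 to 678 of 1275): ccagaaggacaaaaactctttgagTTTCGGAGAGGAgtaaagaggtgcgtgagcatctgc

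WIPI1 and WIPI2 were the closest of the family by sequence, with 65.4% identity over their aligned coding bases and 45 of the 60 bases above in common. WDR45B was 58.3% identical to WDR45, 58.2% to WIPI2 and 54.9% to WIPI1, and it shared 34, 28 and 25 of the 60 bases with them. No pair of the 4 coding sequences had a run of 31 identical bases in common.

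WDR45B, at chr17:80572438-80606429 on GRCh37 (minus strand), had the gene value that differed most between groups among the 10 genes. It was at 27.8, 32.0 and 30.5 FPKM across NC and at 10.9, 12.7 and 12.8 FPKM across FGL1-OE. All 3 FGL1-OE libraries were below all 3 NC libraries, as in 3.06% of all genes tested, and both groups were tight. The means were 30.1 ± 2.15 FPKM across NC and 12.1 ± 1.07 FPKM across FGL1-OE (SD, n = 3 each), a level 2.49-fold higher in NC and a difference of -1.25 on the log2(FPKM + 1) scale. In bulk RNA, less RNA per cell and fewer cells that express the gene cannot be told apart. WDR45B had been picked from this same contrast, so no test of its gene or transcript values is used as support. In the limma fit of the FPKM as deposited its adjusted p was 0.239, above the threshold of 0.05, and the gene next after it, EGR1, was at 0.294. With the trend of each library on GC content and transcript length removed, WDR45B was just inside the threshold at 0.0477 and the gene next after it, SCD, was at 0.181. These adjusted p-values rest on the same values that WDR45B was picked by and support nothing.

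**Figure D1:**
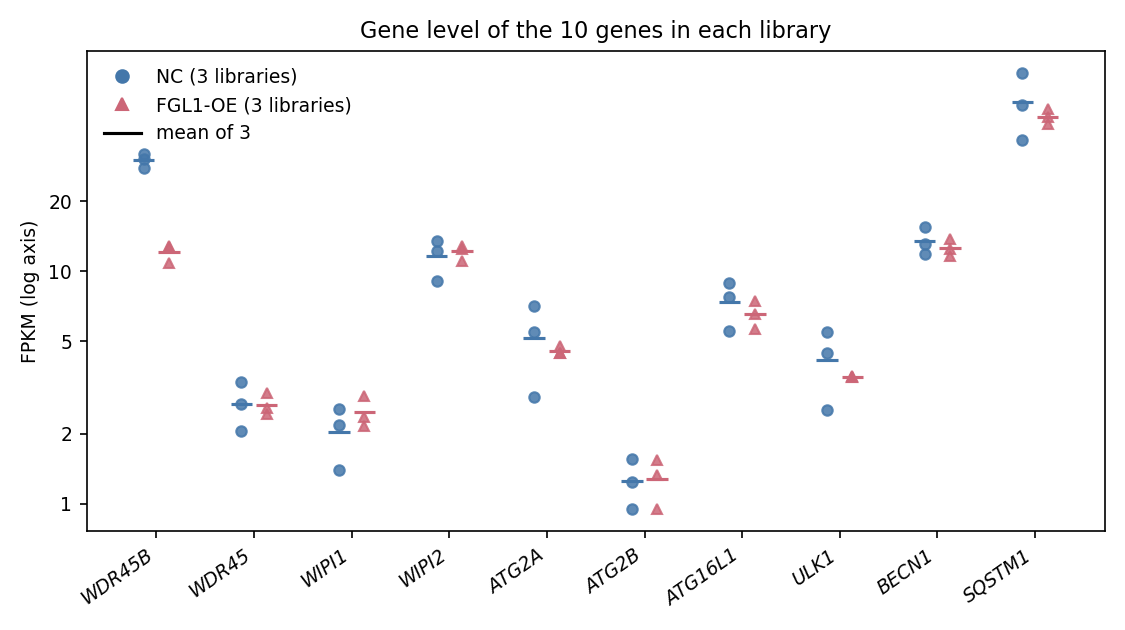
FPKM in the gene table (log axis) of the 10 genes in each library, circles for NC, triangles for FGL1-OE and short lines for the mean of 3. WDR45B is at 27.8 to 32.0 FPKM across NC and at 10.9 to 12.8 FPKM across FGL1-OE, while the ranges of the 2 groups overlap for each of the other 9 genes.

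By the gene table, the share of WDR45B in the family was lower in FGL1-OE. WDR45B made up 63.0, 70.0 and 61.6% of the summed FPKM of the 4 genes in NC 1, 2 and 3 and 38.3, 44.2 and 41.0% in FGL1-OE 1, 2 and 3. The sum of the 4 was 44.1, 45.7 and 49.6 FPKM across NC and 28.4, 28.7 and 31.1 FPKM across FGL1-OE. The sum of WDR45, WIPI1 and WIPI2 alone overlapped between groups, at 13.7 to 19.0 FPKM across NC and 16.0 to 18.4 FPKM across FGL1-OE. The lower share of WDR45B follows from its gene value, which was picked for its difference between groups. WIPI2 itself averaged 11.6 FPKM in NC and 12.2 FPKM in FGL1-OE. It thus stood at 24.9% of the family total on average in NC and at 41.4% in FGL1-OE. This did not hold with the transcript value of WDR45B, described next, in place of its gene value. The share of WDR45B was then 12.0, 71.5 and 37.4% in NC 1, 2 and 3 and 40.6, 46.9 and 42.3% in FGL1-OE 1, 2 and 3, and the groups overlapped. These shares mix 2 measures, since WDR45, WIPI1 and WIPI2 kept their gene values. Those were only 0.247 to 0.587 of the sum of their own transcripts, so neither set of shares puts the 4 genes on one scale. WIPI2 was then at 43.1% on average in NC and at 39.9% in FGL1-OE.

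The transcript table gave another picture of the same gene. WDR45B-201, the 1 WDR45B transcript listed, was at 2.22, 34.3 and 11.4 FPKM across NC and at 12.0, 14.2 and 13.4 FPKM across FGL1-OE. NC 2 was far above all FGL1-OE libraries, NC 1 was far below and NC 3 slightly below all of them, and the groups overlapped. The means were 16.0 ± 16.5 FPKM across NC and 13.2 ± 1.10 FPKM across FGL1-OE (SD, n = 3 each), and the difference was 0.34 on the log2(FPKM + 1) scale, opposite in sign to that of the gene.

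The gene value divided by the transcript value showed where the tables parted. The ratio was 12.5 in NC 1, 0.932 in NC 2 and 2.68 in NC 3, and it was 0.906, 0.894 and 0.951 in FGL1-OE 1, 2 and 3. Gene and transcript thus lay close together in NC 2 and all FGL1-OE libraries, and apart in NC 1 and NC 3. In FPKM, the gene exceeded its transcript by 25.6 in NC 1 and by 19.2 in NC 3. In NC 2, where they matched, the gene and the transcript both stood above every FGL1-OE library. In NC 1 and NC 3 the gene stood above and the transcript below every FGL1-OE library. The highest ratio over the lowest was 14.0 for WDR45B. Across the 3019 genes with 1 listed transcript and at least 0.5 FPKM in the gene and transcript values of every library, that spread had a median of 1.03 and a 95th percentile of 2.32. It was over 2 in 212 genes (7.02%), and 4 genes, WDR45B included, were at 14.0 or above. ATG2B and ULK1, which also had 1 listed transcript, were at 1.02 and 1.05.

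**Figure D2:**
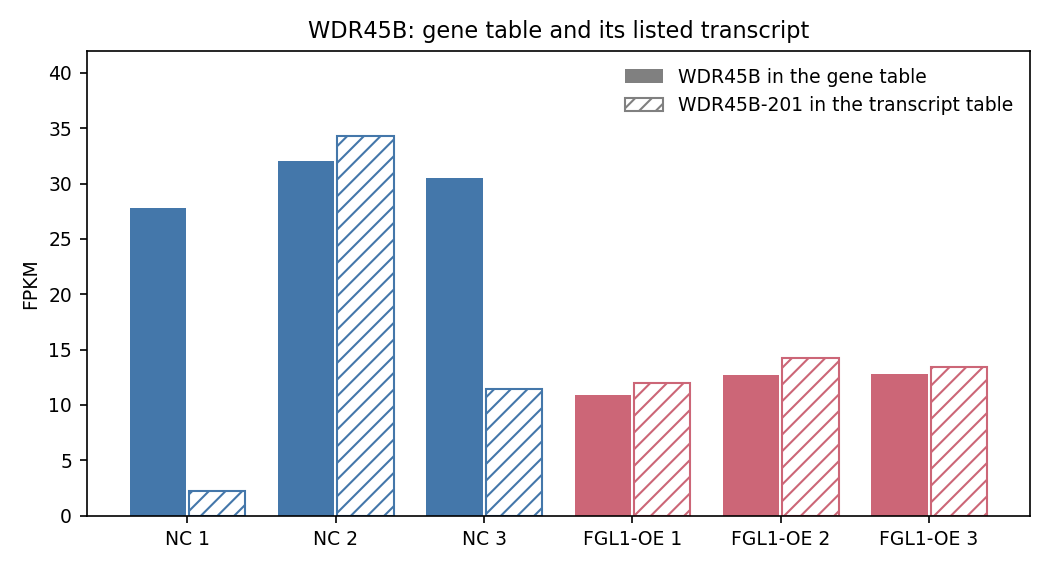
FPKM of WDR45B in the gene table (filled bars) and of WDR45B-201 in the transcript table (hatched bars) in each library. The bars match within each library apart from NC 1 (27.8 against 2.22 FPKM) and NC 3 (30.5 against 11.4 FPKM).

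WDR45B-201 has 10 exons, 2587 bases and a coding sequence of 1032 bases. GENCODE v29 annotates 10 WDR45B transcripts, of which WDR45B-201 alone is protein coding and 9 are of other types (nonsense-mediated decay, retained intron or processed transcript). All 33090 entries of the transcript table are protein coding, so none of the 9 could have a value in it. They repeat much of WDR45B-201, with 45.5 to 98.8% of their 31-base words found in it. Only 0.55% of the 31-base words of WDR45B-201 lie in no other annotated transcript of the 10 genes examined. Of its 2557 words 237 (9.27%) also occur in other genes, all of them in the processed pseudogene WDR45BP1, which is 95.9% identical over 1027 aligned bases. FOXK2, a forkhead transcription factor gene on the opposite strand, covers 30101 of the 33992 bases of the WDR45B locus. FOXK2 was at 9.19, 11.9 and 6.39 FPKM across NC and at 8.17, 9.97 and 8.03 FPKM across FGL1-OE, a difference of -0.03 (SE 0.22, 95% interval -0.55 to 0.49, limma). The library kit kept strand, and whether the quantification used it is not given in the sources used here. The part of the unlisted transcripts, the pseudogene and FOXK2 in the WDR45B values was not tested.

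None of the other 9 genes differed between groups beyond the spread of the replicates. With limma, 0 of 9 had an adjusted p under 0.05 (0.00832% of the 12017 genes tested, FGL1 alone) and 0 of 9 an unadjusted p under 0.05 (2.01% of all genes). Groups overlapped for 9 of 9, where 7.15% of all genes had groups that did not overlap. Differences were above 0 for 4 genes and below 0 for 5, with a median of -0.08 beside 0.02 over all genes, of which 53.7% were higher in FGL1-OE. The adjusted p was 1.00 for all 9 in limma. Several loci overlap other genes, WDR45 with PRAF2 on the same strand over 2604 bases, and WIPI1 with ARSG, ATG2B with GSKIP, BECN1 with PSME3, and SQSTM1 with MRNIP and MGAT4B on the opposite strand, so their values are uncertain where the quantification could split reads. For a single gene the exact permutation test of 3 libraries against 3 cannot go below a two-sided p of 0.1.

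The 3 remaining WIPI genes stayed close to 0. WDR45 (chrX:48929127-48958108, GRCh37 here and in the following) was at 2.69, 2.06 and 3.33 FPKM across NC and 2.44, 2.58 and 2.98 FPKM across FGL1-OE, with a difference of 0.00 (SE 0.17, 95% interval -0.41 to 0.41). All FGL1-OE libraries lay within the NC range. WIPI1 (chr17:66417089-66453654) was at 1.40, 2.55 and 2.18 FPKM across NC and 2.15, 2.36 and 2.90 FPKM across FGL1-OE. Its difference of 0.20 (SE 0.19, 95% interval -0.24 to 0.65) had the smallest unadjusted p of the 9 genes, 0.322 in limma. WIPI2 (chr7:5229819-5273457), the family member that recruits ATG16L1, was at 12.2, 9.08 and 13.5 FPKM across NC and 12.9, 11.1 and 12.5 FPKM across FGL1-OE. The difference was 0.08 (SE 0.18, 95% interval -0.34 to 0.50).

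For both lipid transfer genes the FGL1-OE libraries fell inside the NC range, as for 7 of the 9 genes other than WDR45B and 57.0% of all genes. ATG2A (chr11:64662018-64684720) was at 7.10, 2.87 and 5.47 FPKM across NC and 4.75, 4.44 and 4.47 FPKM across FGL1-OE, a difference of -0.08 (SE 0.26, 95% interval -0.70 to 0.53). The 3 NC libraries spread more than 2-fold while the 3 FGL1-OE libraries were nearly equal. ATG2B (chr14:96745539-96830207) was at 0.946, 1.56 and 1.24 FPKM across NC and 0.947, 1.54 and 1.33 FPKM across FGL1-OE. The difference was 0.02 (SE 0.18, 95% interval -0.40 to 0.43).

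The initiation, PI3-kinase, conjugation and cargo genes overlapped between groups as well. ULK1 (chr12:132379196-132407712), the initiating kinase, was at 5.49, 2.53 and 4.44 FPKM across NC and 3.55, 3.50 and 3.50 FPKM across FGL1-OE, a difference of -0.15 (SE 0.23, 95% interval -0.68 to 0.39). BECN1 (chr17:40962152-40985367), the scaffold of the class III PI3-kinase complex, was at 13.1, 11.9 and 15.5 FPKM across NC and 11.6, 13.7 and 12.5 FPKM across FGL1-OE, a difference of -0.09 (SE 0.16, 95% interval -0.46 to 0.28). BECN1 had the narrowest interval of the 9 genes, with FGL1-OE 1 below the NC range. ATG16L1 (chr2:234118697-234204320) was at 8.87, 5.52 and 7.76 FPKM across NC and 5.63, 7.47 and 6.57 FPKM across FGL1-OE, a difference of -0.14 (SE 0.20, 95% interval -0.60 to 0.33). SQSTM1 (chr5:179233398-179265078), the cargo receptor, was at 71.6, 36.8 and 51.7 FPKM across NC and 50.1, 42.9 and 46.0 FPKM across FGL1-OE, a difference of -0.15 (SE 0.24, 95% interval -0.72 to 0.41). RNA levels do not measure the flow through autophagy, and SQSTM1 protein in particular depends on its degradation.

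**Figure D3:**
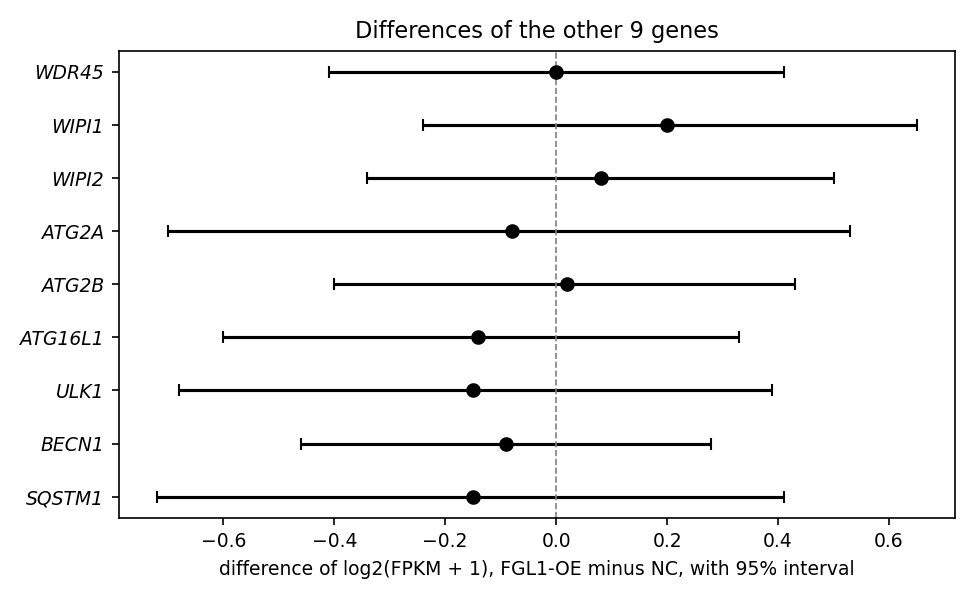
Difference of log2(FPKM + 1), FGL1-OE minus NC, of each of the 9 genes other than WDR45B, with its 95% interval from limma (n = 3 libraries a group). All 9 intervals include 0, and the differences lie between -0.15 and 0.20.

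FPKM is a value per length, but the gene values did not stand in one relation to their summed transcripts. The gene value over that sum was 0.247 to 0.355 for WDR45, 0.290 to 0.310 for SQSTM1 and 0.347 to 0.427 for WIPI2. It was 0.926 to 0.946 for ATG2B. The order given here is therefore that of the gene values alone, and summed transcripts could give another. In NC the order was SQSTM1 (mean 53.4 FPKM), WDR45B (30.1), BECN1 (13.5), WIPI2 (11.6), ATG16L1 (7.38), ATG2A (5.15), ULK1 (4.15), WDR45 (2.69), WIPI1 (2.04) and ATG2B (1.25). Only SQSTM1 and WDR45B, WDR45B and BECN1, and WIPI2 and ATG16L1 were neighbours whose ranges over the 3 NC libraries did not overlap. In FGL1-OE, WDR45B (mean 12.1 FPKM) came after SQSTM1 (46.3), BECN1 (12.6) and WIPI2 (12.2), and its range overlapped with that of WIPI2. The place of WDR45B rests on its gene value, and its transcript averaged 16.0 FPKM in NC, with a range that overlaps those of BECN1, WIPI2 and ATG16L1 among others, and 13.2 FPKM in FGL1-OE. ATG16L1 (6.56), ATG2A (4.55), ULK1 (3.51), WDR45 (2.67), WIPI1 (2.47) and ATG2B (1.27) followed in the same order as in NC. In that group the neighbours with overlapping ranges were BECN1 and WIPI2, WIPI2 and WDR45B, and WDR45 and WIPI1.

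NC libraries varied more than FGL1-OE libraries for most of these genes. The SD of log2(FPKM + 1) was larger in NC for 9 of the 10 genes (84.1% of all genes tested), with medians over the 10 genes of 0.283 in NC and 0.111 in FGL1-OE beside 0.308 and 0.121 over all genes. The gene value of WDR45B was the exception, with SDs of 0.101 in NC and 0.121 in FGL1-OE. WDR45B was picked for its difference between groups, a choice that favours a small spread within them. Its transcript WDR45B-201 had SDs of 1.73 in NC and 0.114 in FGL1-OE. ATG16L1, ATG2A, SQSTM1 and ULK1 were highest in NC 1 and lowest in NC 2, as were 30.0% of all genes. WDR45B, ATG2B and WIPI1 were highest in NC 2 and lowest in NC 1, as were 40.0% of all genes. The difference between NC 1 and NC 2 in log2(FPKM + 1) ran with the GC content of the transcript, with a Spearman rho of 0.78 across 11906 genes, which share their libraries and are not independent (0.54 for FGL1-OE 1 and 2). It was 1.07 for ATG2A (64.0% GC), 0.88 for ULK1 (64.2%) and 0.94 for SQSTM1 (58.0%), against -0.40 for ATG2B (44.2%), -0.57 for WIPI1 (47.8%) and -0.20 for WDR45B (51.5%). WIPI2 was at 0.39 (54.2%) and WDR45 at 0.27 (57.0%). ATG16L1 at 0.60 (50.0%) and BECN1 at 0.13 (46.1%) lay above WDR45B at a lower GC content. With the trend of each library on GC content and length removed, 0 of the 9 genes other than WDR45B had an unadjusted p under 0.05 in limma. The share of all genes in that fit is not given here.

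Leaving out NC 2 moved 2 of the 9 genes past the unadjusted threshold. Without NC 2, the difference was -0.38 for ATG2A (unadjusted p = 0.0328, adjusted p = 0.210 in limma) and -0.40 for ULK1 (unadjusted p = 0.0211, adjusted p = 0.200). Those 2 of 9 genes (22.2%) stood beside 21.8% of all genes with an unadjusted p under 0.05 in the same fit, and no adjusted p of the 9 was under 0.05. The share was thus that of the background. WDR45B was -1.31 to -1.18 in every alternative other than the summed transcript table, which gave 0.34.

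At the transcript level, 26 transcripts of the other 9 genes passed the filter of 0.5 FPKM out of 31 listed, and none was called. By limma, 0 of 26 had an adjusted p under 0.05 (0.0165% of the 30330 transcripts tested) and 0 an unadjusted p under 0.05 (3.53%). None of the 26 had groups that did not overlap (8.22% of all transcripts). Without NC 2, 5 of 26 (BECN1-201, BECN1-220, ATG2A-201, SQSTM1-215 and WDR45-208) had an unadjusted p under 0.05 in limma, beside 8.89% of all transcripts, and the smallest adjusted p of the 26 was 0.278. Among the 5 transcripts below the filter, WDR45-201 and WDR45-213 had groups that did not overlap, and both were named after their values were seen. The share of such transcripts among all those below the filter is not given here, so nothing is read from these low values. WDR45-201 was at 1.16, 0.319 and 0.606 FPKM across NC and at 9.10e-05, 0.170 and 0.0389 FPKM across FGL1-OE. WDR45-213 was at 0.577, 0.677 and 1.01 FPKM across NC and at 0.0496, 0 and 0.370 FPKM across FGL1-OE. The 9 listed WDR45 transcripts repeat one another, and 12.9 to 21.0% of their 31-base words also occur in other genes, mostly in the pseudogene WDR45P1.

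The most abundant transcript of each gene kept to the spread of its replicates. SQSTM1-201 was at 180, 106 and 147 FPKM across NC and 137, 121 and 127 FPKM across FGL1-OE. WIPI2-202 was at 20.5, 9.92 and 22.0 FPKM across NC and 19.3, 11.2 and 14.2 FPKM across FGL1-OE. BECN1-213 was at 14.3, 8.46 and 25.7 FPKM across NC and 12.2, 23.7 and 18.7 FPKM across FGL1-OE. For all 3 the lowest value was that of NC 2. ATG16L1-205 was at 7.28, 9.50 and 13.7 FPKM across NC and 9.54, 13.3 and 11.7 FPKM across FGL1-OE, and ATG2A-201 at 6.44, 0.767 and 6.03 FPKM across NC and 2.38, 3.48 and 3.39 FPKM across FGL1-OE. WIPI1-201 (1.74 to 4.29 FPKM in NC, 3.52 to 4.87 FPKM across FGL1-OE), ULK1-201 (3.40 to 7.61 and 4.61 to 4.88 FPKM), ATG2B-202 (1.01 to 1.65 and 1.02 to 1.67 FPKM) and WDR45-220 (0.662 to 4.95 and 0.773 to 4.28 FPKM) also overlapped between groups.

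Transcripts of 1 gene that share most of their bases differed widely within a group. ATG16L1-201, which lacks 432 of the 1764 coding bases of ATG16L1-205, was at 7.08 FPKM in NC 1 and at 0 to 0.139 FPKM in the other 5 libraries. BECN1-201 and BECN1-213 have the same 1350 coding bases and differ by 25 bases elsewhere. BECN1-201 was at 0.0470, 9.72 and 0.00617 FPKM across NC and 5.36, 2.08 and 2.75 FPKM across FGL1-OE. It was highest in NC 2, where BECN1-213 was lowest. The gene value set against the sum of its transcripts varied less, with a highest ratio over lowest of at most 1.66 among the other 9 genes beside 14.0 for WDR45B.

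**Figure D4:**
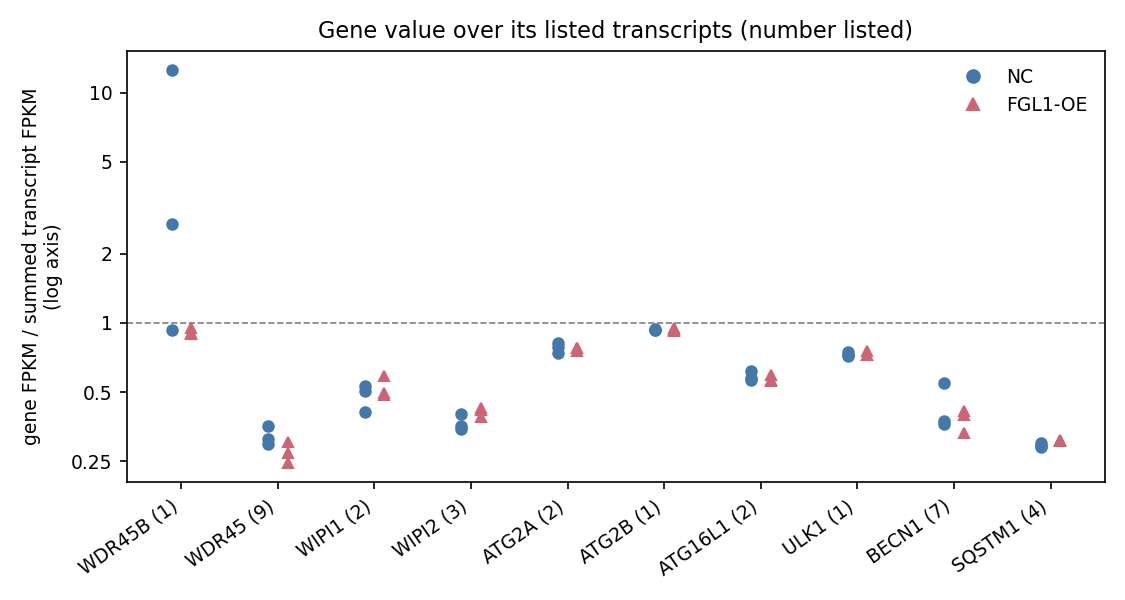
Gene FPKM divided by the summed FPKM of the listed transcripts (log axis) in each library, with the number of listed transcripts in brackets. WDR45B runs from 0.894 to 12.5, with NC 1 and NC 3 apart, while the 9 other genes differ by at most 1.66-fold across libraries.

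The wider pathway, in 9 lists by role, gave the same result as the 9 genes, which are among its members. Of 82 genes in the lists 77 were listed (not ATG9B, MAP1LC3A, MAP1LC3B2, MAP1LC3C and ULK2), and the 76 other than WDR45B were all tested. By limma, 0 of 76 passed at an adjusted or an unadjusted p under 0.05, beside 0.00832 and 2.01% of all genes. No gene had groups that did not overlap, beside 7.15% of all genes. The difference was above 0 for 49 genes and below 0 for 27, with a median of 0.04 beside 0.02 over all genes, of which 53.7% were above 0. Medians of the 9 lists were between -0.05 (ULK1 complex) and 0.08 (the WIPI family without WDR45B).

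The gene with the smallest p of each list is named here with its difference on the log2(FPKM + 1) scale, and none passed the test. The ATG8 family, whose members coat the autophagosome, ran from -0.41 to 0.36. GABARAP, at the low end, was at 21.7, 10.5 and 14.2 FPKM across NC and 13.4, 9.92 and 9.79 FPKM across FGL1-OE (SE 0.26, unadjusted p = 0.163 in limma). PRKAG2, a regulatory subunit of the energy sensor AMPK, was at 3.39, 6.40 and 3.77 FPKM across NC and 5.75, 5.66 and 6.07 FPKM across FGL1-OE, a difference of 0.34 (SE 0.22, unadjusted p = 0.150 in limma). For GABARAP, NC 1 and NC 3 lay above all FGL1-OE libraries and NC 2 among them, and for PRKAG2, NC 1 and NC 3 lay below and NC 2 above all FGL1-OE libraries. BNIP3L, a mitophagy receptor, was at 11.5, 23.5 and 13.7 FPKM across NC and 18.1, 22.4 and 19.5 FPKM across FGL1-OE, a difference of 0.34 (SE 0.26). The other lists were led by RUBCN, which restrains the PI3-kinase complex (0.21, SE 0.25), RB1CC1 of the ULK1 complex (0.18, SE 0.23), the conjugating enzyme ATG3 (0.18, SE 0.19), the lysosomal adaptor PLEKHM1 (-0.18, SE 0.17) and the scramblase TMEM41B (0.07, SE 0.15). In the WIPI family it was WIPI1. Without NC 2, 12 of the 76 genes (15.8%) had an unadjusted p under 0.05, 8 higher and 4 lower, beside 21.8% of all genes, and the smallest adjusted p was 0.195.

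**Figure D5:**
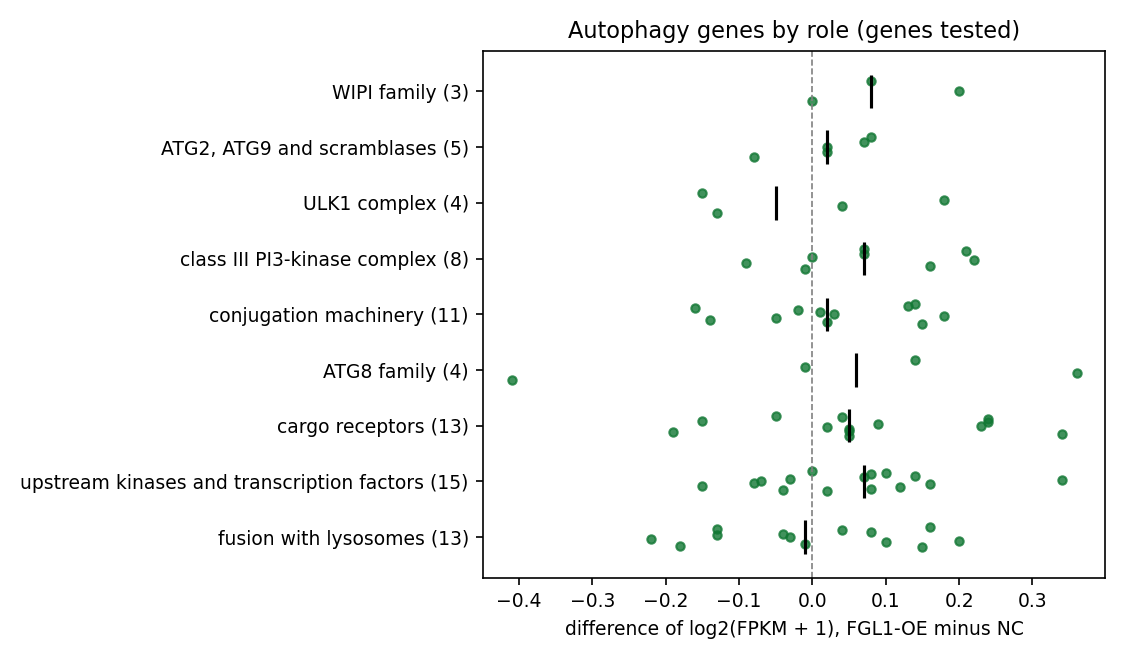
Difference of log2(FPKM + 1), FGL1-OE minus NC, of the 76 autophagy genes tested other than WDR45B, 1 point a gene, by role, with a black line for the median of each list. Points lie on both sides of 0 in 8 of the 9 lists, between -0.41 and 0.36.

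The genes whose pattern over the 6 libraries was most like that of the WDR45B gene value were named by Pearson's r of log2(FPKM + 1). They were FAM234B (r = 0.993), FBXO32, a ubiquitin ligase subunit (0.990), TNFRSF21, a death receptor (0.989), AGR2, a protein disulfide isomerase (0.979), and ZER1, a ubiquitin ligase adaptor (0.974). The 6 points fall into the 2 groups, and 17 of 12007 genes were over 0.95. FAM234B was at 4.33, 4.37 and 4.35 FPKM across NC and 3.15, 3.23 and 3.16 FPKM across FGL1-OE. AGR2 was at 4.34, 5.05 and 4.34 FPKM across NC and 2.54, 2.56 and 2.98 FPKM across FGL1-OE. FBXO32 was at 3.72, 3.58 and 3.73 FPKM across NC and 2.05, 2.30 and 2.32 FPKM across FGL1-OE. All 5 were lower in each FGL1-OE library than in each NC library, which their choice implies, and the fold of the mean FPKM, NC over FGL1-OE, was between 1.14 (TNFRSF21) and 1.70 (AGR2). For the other 9 pathway genes, r with the WDR45B gene value was between -0.36 (WIPI1) and 0.36 (BECN1). That gene value mostly follows the groups it was picked for, so these r add little to the overlap of the 9 genes between groups. The transcript WDR45B-201, whose pattern differed from that of the gene, was not used for r.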

How the data were processed

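RNA-seq libraries of TE1 cells, 3 NC and 3 FGL1-OE, were assigned to groups by their genotype labels. The authors deposited FPKM values per gene and per transcript. Their processing notes name StringTie and GRCh37. Versions, the aligner and the strand setting are not given in the sources used here. Fold changes, p-values and group means of the authors' own comparison stand in the same tables and were not used. All listed genes and transcripts are protein coding. Values reach down to 1.00e-06 FPKM, as model estimates do, and neither whole reads nor depth were recovered.

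Features averaging 0.5 FPKM or more were fitted with limma 3.58.1 in R 4.3.3 (lmFit, eBayes) on log2(FPKM + 1), a scale that understates changes of low genes, without covariates or scaling. Benjamini-Hochberg adjustment covered the whole table. The fit was run on simulated data with the same spread in both groups and no GC trend. These libraries differ in both respects, so that run does not measure how the fit performs on them. The members and lists were chosen with earlier results of these data known. WDR45B was picked from its difference between the groups, and its adjusted p-values are given as description only. The names in the text follow a rule: the 10 genes, FGL1, the role list genes with unadjusted p under 0.05 or else the smallest p of each list, the most abundant transcript of each gene, transcripts with an unadjusted p under 0.05 and groups that do not overlap, and the 5 genes most correlated with WDR45B. FOXK2, EGR1, SCD, CDH1, KRT6A and the transcripts given as examples were added after their values were seen.

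Sequences, lengths, GC content and types came from GENCODE v29 (GRCh38), with 99.0% of the genes matched, and coordinates of the tables are on GRCh37. Shared sequence was counted as identical 31-base words. Alternatives were another pseudocount, filters, scaling to a common sum, quantile normalization, a replicate block, no moderation, GC and length trends removed, summed transcripts and each library left out.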

Additional observations from a re-analysis of the deposited data

How the results depend on the processing

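Of 236 values under other settings, 212 kept their direction and their side of the threshold or were counts that stayed at 0. Another 17 changed sign, and 7 counts rose from 0. No adjusted p of the 9 tested genes went under 0.200, and the counts at an adjusted p under 0.05 (genes, list genes and transcripts) were 0 in every setting. The WDR45B gene difference was 0.34 with transcripts summed per gene, and -1.30 to -1.18 with 1 library left out. The sign changed for genes near 0. WDR45 was at -0.002 with scaling to a common sum and -0.026 with quantile normalization, WIPI2 at -0.077 and BECN1 at 0.059 with transcripts summed, and without the GC and length trend ATG2A was at 0.036 and ATG2B at -0.032. With 1 library left out, the differences ran from -0.13 to 0.12 (WDR45), -0.075 to 0.19 (WIPI2), -0.38 to 0.15 (ATG2A), -0.085 to 0.12 (ATG2B), -0.40 to 0.043 (ULK1), -0.17 to 0.0097 (BECN1) and -0.39 to 0.083 (SQSTM1), and without a change of sign from 0.041 (without NC 1) to 0.32 (without NC 2) for WIPI1 and from -0.31 (without NC 2) to -0.0067 (without NC 1) for ATG16L1. Among the 9 genes 0 to 2, and among the list genes 0 to 12, had an unadjusted limma p under 0.05 with 1 library left out, both highest without NC 2. Without the GC and length trend 1 list gene passed, BNIP3L, at a difference of 0.27 (unadjusted p = 0.0368, adjusted p = 0.785, limma). The share of all genes that passed in that fit is not given here, so this count cannot be weighed. Of member transcripts, 1 of 31 passed without a filter (3.62% of all transcripts), and 0 to 5 of 26 with 1 library left out, 5 without NC 2 (8.89%) and 1 without NC 1 (4.08%). The cause was not tested. With the replicate block 1 of 26 passed (3.47%) where 0 had. Whether the numbers pair the libraries could not be decided. Deviations of the same number correlated at 0.345, 0.282 and -0.061. NC 1 and NC 2 were closest to the FGL1-OE library of their own number, and NC 3 was closest to FGL1-OE 1 (0.111). Deviations within a group of 3 sum to 0, so these correlations are tied to one another. The unknown depth limits all values of low transcripts.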
